A study of Mus musculus with 8 samples.

Results

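The genes described here encode the proteins of the mitochondrial ribosome. They were chosen by symbol alone, as protein-coding mouse genes named Mrpl or Mrps followed by a number and, in some, a letter. All 78 such genes of the annotation were among the 15538 genes of the expression table, 49 of them Mrpl (large subunit) and 29 Mrps (small subunit). Messenger RNA was sequenced from primary neurospheres, floating cultures of neural stem cells of the embryonic mouse brain. The labels give 4 libraries of wild-type (WT) cells and 4 of cells with both copies of Phf23 lost (Phf23-/-). Phf23 encodes a PHD-finger chromatin protein. The labels give no strain, embryonic age, sex or passage, and do not say whether the libraries of a genotype came from separate cultures or embryos. Every p-value therefore rests on how these libraries vary among themselves, and that variation may be technical only.

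The mitochondrial ribosome translates the few proteins that mitochondrial DNA encodes, all of them subunits of the respiratory chain and ATP synthase. Its own proteins are encoded in the nucleus, made in the cytosol and imported, while its ribosomal RNAs are transcribed inside the organelle. The small subunit reads the messenger RNA and the large subunit joins the amino acids. Many of the proteins descend from those of bacterial ribosomes, and the others are found in mitochondria alone. A symbol does not always give the place of the protein: those of Mrps30 and Mrps18a lie in the large subunit, and that of Mrps36 belongs to the oxoglutarate dehydrogenase complex.

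Values are normalised reads, which are read counts divided by 1 scaling factor per library. Recovered depth ran from 15647304 to 19462516 reads per library. Phf23 itself stood at 720, 766, 788 and 919 under the wild-type label and at 1607, 1528, 1429 and 1361 under the knockout label, and so was higher where it was to be lost (log2 fold change 0.89 ± 0.11 SE, limma-trend FDR = 0.000581). The groups are therefore called the libraries labelled wild type and labelled knockout. All 8 neural stem cell markers looked for were in the table, and their summed level was 136420 to 145801 normalised reads in the first group and 156423 to 198907 in the second. The sums of 5 neuronal markers (15158 to 20379 against 9167 to 12035) and 4 oligodendrocyte markers (297 to 406 against 638 to 794) did not overlap between the groups either, nor did those of 3 astrocyte markers (728 to 844 against 876 to 1084). Single markers did not all follow the sums: of the neuronal markers limma-trend called Map2 lower and Rbfox3 higher, and of the astrocyte markers 2 were higher and Aqp4 lower. All 4 oligodendrocyte markers and 2 of the 8 neural stem cell markers were higher. Of markers of microglia, endothelium and mesenchyme, 1 of 4, 1 of 3 and 2 of 3 were in the table, with sums of at most 48.4, 24.2 and 38.2 normalised reads in any library. None of 3 red blood cell genes was in it. The part of cell makeup in the results that follow was not tested, and in bulk RNA fewer cells of a type cannot be told apart from less RNA per cell.

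Most mitochondrial ribosomal protein genes were higher in the libraries labelled knockout, by about 1.5-fold at the median, and none was called lower. In limma-trend on log2(value + 1), 55 of 78 genes passed an FDR of 0.05 and were higher, where 14.8% of all 15538 genes tested were. Lower genes numbered 0 of 78, against 14.8% of all genes (29.6% in either direction). No gene was lower at an unadjusted p under 0.05 either, and edgeR and DESeq2 on the recovered reads also called 0 lower, with 57 and 60 higher. Of all genes they tested, edgeR called 18.1% higher and 17.0% lower, and DESeq2 17.9% and 17.6%. The log2 fold change was above 0 in 77 of 78, with a median of 0.55 where the median of all genes was 0.000553, and ran from -0.078 in Mrps18b to 1.22 in Mrpl14. In fold terms, the mean of the libraries labelled knockout was at least 1.5 times that of wild type in 37 genes, and the median of the 78 ratios was 1.47. The log2 fold change reached 1 at an FDR under 0.05 in 3 genes (Mrpl14, Mrpl54 and Mrps24), against 1.59% of all genes. In 39 genes each library labelled knockout lay above each one labelled wild type, against 13.6% of all genes.

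**Figure D1:**
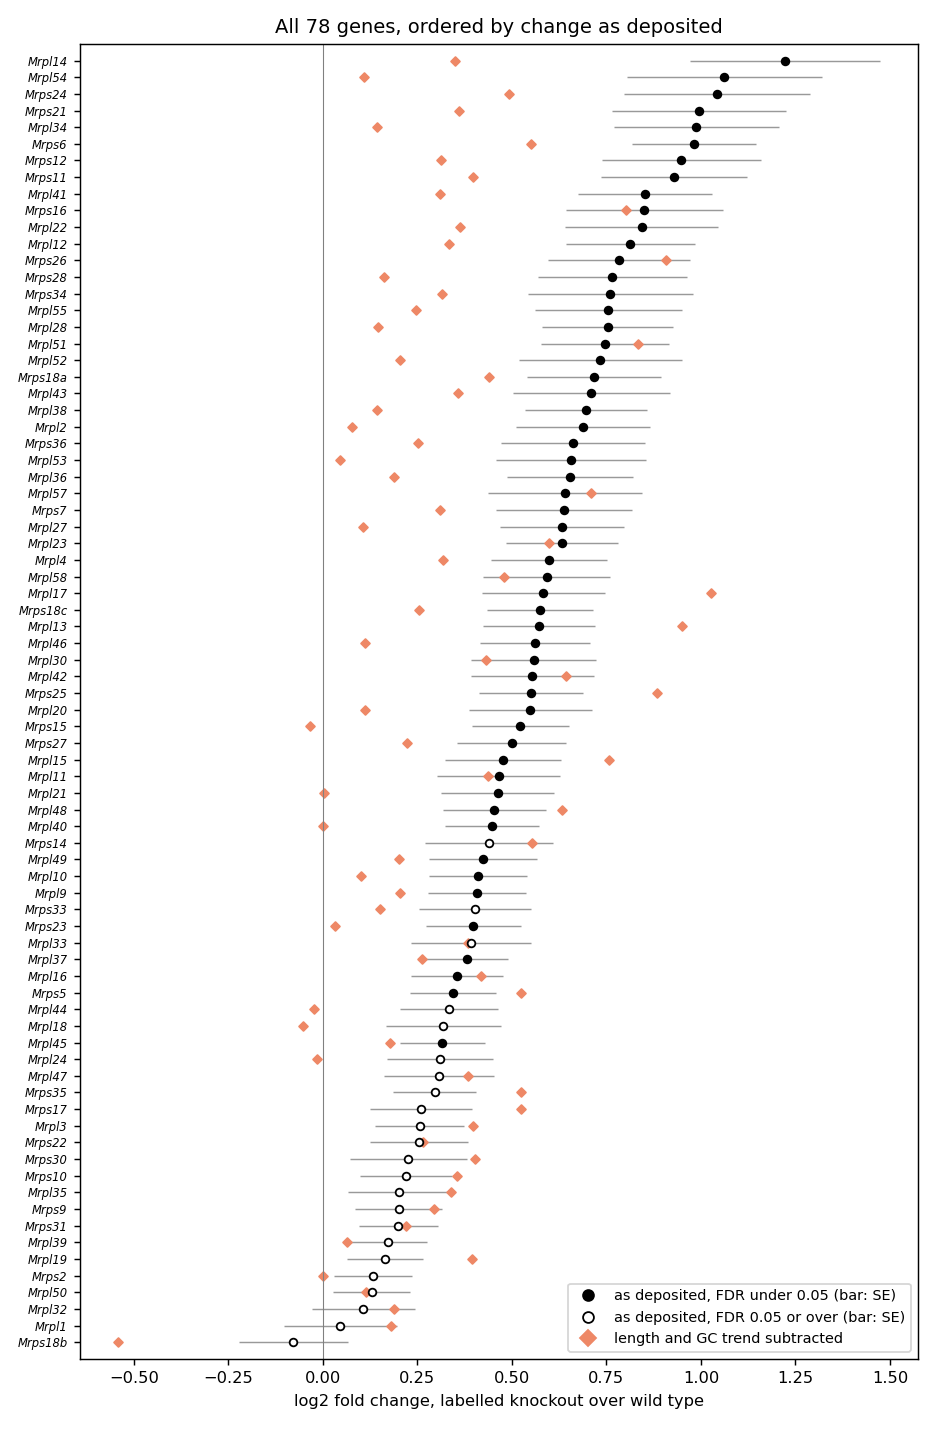
Log2 fold change of each of the 78 genes, labelled knockout over wild type, from limma-trend (circles with SE bars, filled where FDR is under 0.05) and after subtraction of each library's trend with transcript length and GC content (diamonds). Of the circles, 77 lie right of 0 and 55 are filled, and the diamonds of short-transcript genes such as Mrpl54 and Mrpl34 lie much closer to 0 than their circles.

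The share of all reads that came from the 78 genes was 0.281, 0.301, 0.342 and 0.343% in wild type 1 to 4. The libraries labelled knockout 1 to 4 gave 0.492, 0.521, 0.405 and 0.360%. Thus the groups did not overlap, but knockout 4 stood close to wild type 3 and 4, and knockout 1 and 2 stood far above. The same order ran through the single genes. In 77 of 78 the highest library was knockout 1 or 2, and in 74 both of these lay above knockout 3 and 4. Knockout 4 was above all 4 wild-type libraries in 39 genes, knockout 3 in 72, knockout 1 in 75 and knockout 2 in 78. Among the wild-type libraries, 1 and 2 lay below 3 and 4 in 48 genes.

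Another property of the libraries had exactly the reverse order. Across 13265 genes, the change in log2 level per doubling of transcript length, each gene taken relative to its mean over libraries, was 0.26, 0.20, 0.079 and 0.062 in wild type 1 to 4. Knockout 1 to 4 had slopes of -0.24, -0.31, -0.093 and 0.040. Short transcripts were thus relatively most abundant in knockout 1 and 2 and least in wild type 1 and 2. This length slope did not overlap between the groups, so its part in the difference between them cannot be told apart by the design alone. It is taken up with the control genes.

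**Figure D2:**
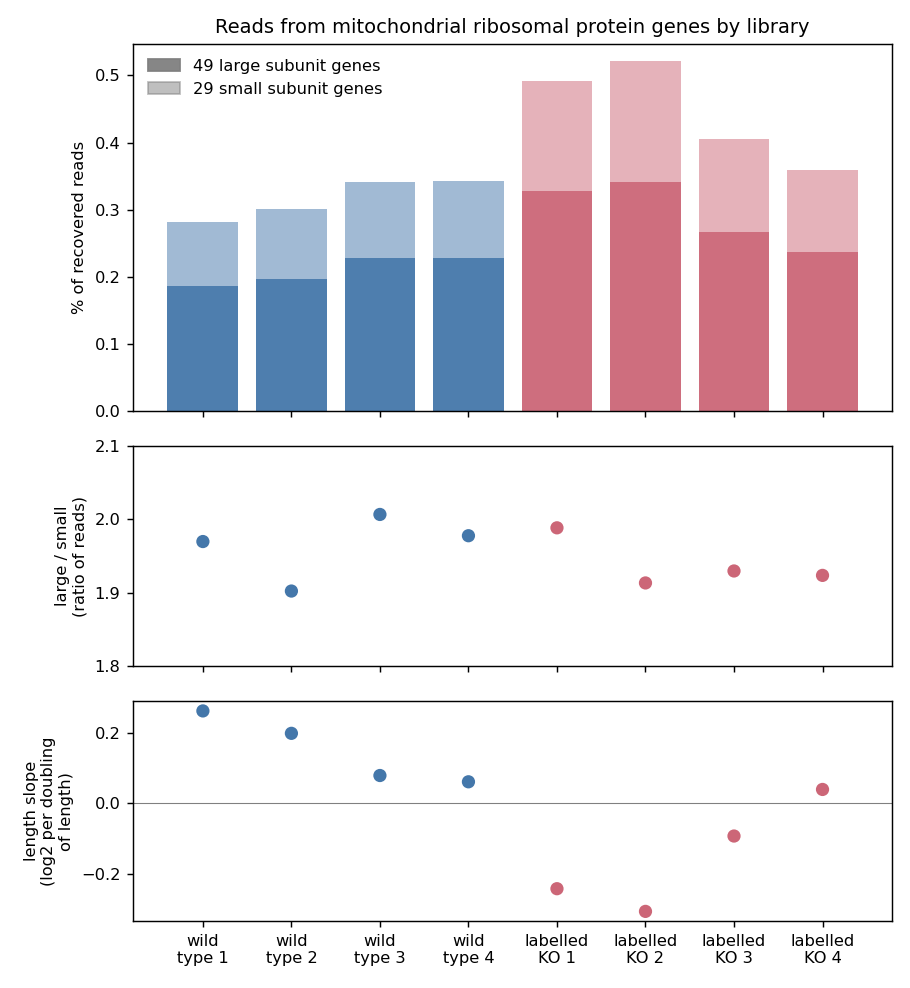
Top: percent of recovered reads from the 49 large subunit (dark) and 29 small subunit (pale) genes in each library. Middle: ratio of the large to the small subunit reads, which stays between 1.90 and 2.01 (the axis does not start at 0). Bottom: length slope of each library, falling where the share rises, with knockout 1 and 2 at -0.24 and -0.31.

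The medians of the 2 subunits were close, and their difference was not tested. Of 49 large subunit genes 37 were higher, with a median log2 fold change of 0.55, and of 29 small subunit genes 18 were higher, with a median of 0.52. Large subunit genes gave 1.97, 1.90, 2.01 and 1.98 times the reads of small subunit genes in wild type 1 to 4 and 1.99, 1.91, 1.93 and 1.92 times in knockout 1 to 4. These ratios overlapped, at 1.96 ± 0.044 (SD, n = 4) and 1.94 ± 0.034 (SD, n = 4). Sorting by the place of the protein, with Mrps30 and Mrps18a in the large subunit and Mrps36 left out, gave 38 of 51 and 16 of 26 higher. Within transcripts under 1500 nt, 19 of 22 large and 10 of 12 small subunit genes were higher. Within those of 1500 nt and over, the counts were 18 of 27 and 8 of 17, with medians of 0.41 and 0.34.

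By origin the medians were also close. Among large subunit genes, 20 of 29 with a bacterial homologue were higher (median log2 fold change 0.48), as were 17 of 20 that are specific to mitochondria (median 0.58). Among small subunit genes the counts were 11 of 17 with a homologue (median 0.57) and 7 of 12 specific to mitochondria (median 0.45). Mrps28 was counted with the latter, although its protein is now named after bacterial S1. Moved to the former, it gave 12 of 18 and 6 of 11.

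The start regions of several genes taken up below are shown because nuclear genes of the mitochondrial ribosome are known for a few short promoter motifs. Sequences are from RefSeq (GRCm38.p6), from 250 bases before to 50 after an annotated start, and 69 of 78 genes matched, with 75 promoters. The motifs searched on both strands were CCGGAAG, the core bound by ETS factors such as GABP, AAGATGGC of YY1, the palindromic motif of NRF1, GGGCGG of SP1 and TATAAA of the TATA box. The ETS core was found in 34.7% of member promoters, against 8.86% of all promoters in the collection and 15.3% of those of other measured coding genes. The YY1 motif stood in 16.0%, against 2.75% and 3.80%, and the NRF1 motif in 17.3%, against 4.60% and 8.70%. The GC box was in 52.0%, against 35.7% and 60.1%, and the TATA box in 6.67%, against 13.6% and 7.45%. A match describes letters in the window and shows no binding. Capitals mark the ETS core, or its reverse complement, in the first 4 lines, and the reverse complement of the YY1 motif in the line of Mrps11.
Mrpl34, chr8:71464877-71464907, plus strand: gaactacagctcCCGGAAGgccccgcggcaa
Mrpl51, chr6:125192098-125192128, plus strand: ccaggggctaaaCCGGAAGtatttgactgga
Mrpl17, chr7:105811306-105811336, minus strand: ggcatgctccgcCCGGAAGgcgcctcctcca
Mrps26, chr2:130563731-130563756, plus strand: gctccgcggccaCTTCCGGgccgggc
Mrps11, chr7:78783012-78783043, plus strand: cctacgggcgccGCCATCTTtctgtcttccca
Of the 26 genes with the ETS core 20 were higher, with a median log2 fold change of 0.61, and of the 43 matched genes without it 28 were, with a median of 0.44. With the YY1 motif 10 of 12 were higher (median 0.60), and without it 38 of 57 (median 0.46). For the NRF1 motif the counts were 9 of 13 (median 0.56) with it and 39 of 56 (median 0.51) without. For the GC box they were 25 of 34 (median 0.57) and 23 of 35 (median 0.46). The TATA box went the other way in its medians, with 4 of 5 (median 0.45) and 44 of 64 (median 0.54). None of these differences was tested. Mrps6 and Mrps18b are the genes of the small subunit with the lowest FDR and with the smallest log2 fold change. In both, the 120 bases before the RefSeq start used hold neither the ETS nor the YY1 letters. For Mrps6 that start lies within the gene span given below, which is from GENCODE. Part of its printed stretch therefore lies inside that span.
Mrps6, chr16:92058216-92058335, plus strand: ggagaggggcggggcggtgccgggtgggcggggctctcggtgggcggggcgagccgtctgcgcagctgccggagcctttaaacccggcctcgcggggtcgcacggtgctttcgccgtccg
Mrps18b, chr17:35916441-35916560, minus strand: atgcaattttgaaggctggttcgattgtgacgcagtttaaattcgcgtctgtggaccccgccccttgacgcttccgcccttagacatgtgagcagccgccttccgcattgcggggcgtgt

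Among large subunit genes with a bacterial homologue, Mrpl14 changed most. Its protein sits at the face that meets the small subunit. Mrpl14 (ENSMUSG00000023939, chromosome 17, 45686322 to 45698495, plus strand, mm10) stood at 244, 251, 416 and 483 in wild type 1 to 4 and 942, 1099, 638 and 557 in knockout 1 to 4 (normalised reads). All 4 libraries labelled knockout were above all of wild type, and the lowest of them, knockout 4, was nearest to wild type 4. Group means of 349 ± 120 and 809 ± 255 (SD, n = 4 each) gave a log2 fold change of 1.22 ± 0.25 SE (limma-trend FDR = 0.00728). With the trend over transcript length and GC content subtracted it was 0.35 where the trend was fitted on longest transcripts (limma-trend FDR = 0.0241). Where it was fitted on median coding transcripts, 0.75 was left (FDR = 0.0091). Both lengths of Mrpl14 are 645 nt, so these values differ by the trend fitted over all genes, not by its own length.

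Mrpl12 encodes the protein of the flexible stalk that recruits translation factors. Mrpl12 stood at 1210, 1270, 1828 and 1798 in wild type 1 to 4 and 3395, 2823, 2401 and 2099 in knockout 1 to 4 (normalised reads). The groups did not overlap, and wild type 1 and 2 lay well below wild type 3 and 4. Its log2 fold change was 0.81 ± 0.17 SE (limma-trend FDR = 0.00769).

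Mrpl34, a small protein of the bacterial core, was the second most abundant gene per length, at 2079 normalised reads per kilobase of longest transcript. It stood at 607, 768, 947 and 1014 in wild type 1 to 4 and 1995, 2258, 1429 and 1079 in knockout 1 to 4 (normalised reads). Knockout 4 was only slightly above wild type 4. Its log2 fold change was 0.99 ± 0.22 SE (limma-trend FDR = 0.00922), and with the length and GC trend subtracted 0.14 (FDR = 0.265).

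Of the large subunit genes specific to mitochondria, Mrpl41, Mrpl51 and Mrpl38 had the lowest FDR. Mrpl41 stood at 440, 474, 653 and 619 in wild type 1 to 4 and 1173, 1207, 846 and 750 in knockout 1 to 4 (normalised reads), a log2 fold change of 0.85 ± 0.18 SE (limma-trend FDR = 0.00732). Mrpl51 stood at 771, 971, 1033 and 1155 against 2049, 1966, 1391 and 1265, a log2 fold change of 0.75 ± 0.17 SE (limma-trend FDR = 0.00991). The groups did not overlap in either gene, and in both knockout 1 and 2 were the highest libraries. Mrpl38, of the central protuberance, stood at 670, 691, 824 and 879 against 1359, 1634, 1111 and 939, a log2 fold change of 0.70 ± 0.16 SE (limma-trend FDR = 0.0107). Its groups did not overlap either. The 3 differed once the length and GC trend was subtracted: Mrpl51, with a longest transcript of 3427 nt, stood at 0.83 (limma-trend FDR = 0.0237), Mrpl41 at 0.31 (FDR = 0.0222) and Mrpl38 at 0.14 (FDR = 0.272).

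Mrps6 was the member with the lowest FDR and the highest mean. Its protein lies on the platform side of the small subunit and descends from bacterial S6. Mrps6 (ENSMUSG00000039680, chromosome 16, 92058270 to 92112227, plus strand, mm10) stood at 1590, 1676, 1754 and 1824 in wild type 1 to 4 and 3774, 4726, 2928 and 2482 in knockout 1 to 4 (normalised reads). The wild-type libraries lay close together, and each library labelled knockout lay well above them. Group means of 1711 ± 101 and 3477 ± 990 (SD, n = 4 each) gave a log2 fold change of 0.98 ± 0.16 SE (limma-trend FDR = 0.00341). Subtracting the length and GC trend left 0.55 (FDR = 0.000672), and leaving out the 4 libraries of steepest length slope left 0.59 (FDR = 4.9e-06, 2 libraries against 2). Wild type 3 and 4, kept in that last fit, were the closest pair of all libraries. Their mean squared difference in reads, over counting variance, was 5.99 per gene, and their spread may be technical only. With the slope as a covariate the log2 fold change of Mrps6 was 0.35 (FDR = 0.312), the lowest FDR of any member in that fit. An exon of Mrps6 shares 159 nt with Slc5a3 on the same strand, a sodium/myo-inositol transporter gene, so some reads could belong to either. Slc5a3 had 5550 ± 629 and 5333 ± 433 normalised reads (SD, n = 4 each; log2 fold change -0.054, limma-trend FDR = 0.737).

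Mrps11 and Mrps12 encode proteins of the bacterial core, on the platform and at the decoding centre. Mrps11 stood at 248, 307, 421 and 446 in wild type 1 to 4 and 727, 818, 613 and 518 in knockout 1 to 4 (normalised reads), a log2 fold change of 0.93 ± 0.19 SE (limma-trend FDR = 0.00744). Mrps12 stood at 260, 280, 440 and 486 against 760, 872, 550 and 597, a log2 fold change of 0.95 ± 0.21 SE (limma-trend FDR = 0.00934). Neither gene's groups overlapped, and in both wild type 1 and 2 were the lowest libraries. Mrps11 lies back to back with another member, Mrpl46, and the pair share an exon stretch of up to 173 nt on opposite strands. Mrpl46 was also higher, with a log2 fold change of 0.56 (limma-trend FDR = 0.0153).

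Of the small subunit genes specific to mitochondria, Mrps26 stood at 409, 517, 650 and 725 in wild type 1 to 4 and 1213, 1127, 783 and 821 in knockout 1 to 4 (normalised reads). Its log2 fold change was 0.78 ± 0.19 SE (limma-trend FDR = 0.0121). Mrps28 stood at 239, 259, 444 and 417 against 646, 585, 549 and 466, a log2 fold change of 0.77 ± 0.20 SE (limma-trend FDR = 0.0149). In both genes the groups stood apart by a small margin, wild type 3 or 4 being nearest to the lowest library labelled knockout. Without wild type 2 or without knockout 1, Mrps28 was no longer called. Mrps25 stood at 419, 477, 446 and 546 against 783, 806, 637 and 559, a log2 fold change of 0.55 ± 0.14 SE (limma-trend FDR = 0.0138, and 0.0541 without knockout 1). It was the least abundant member per length, at 96.2 normalised reads per kilobase of a longest transcript of 6073 nt. The longest exon stretch of Mrps25 opposite an exon of Nr2c2, a nuclear receptor gene, is 3533 nt. Nr2c2 was lower, at 815 ± 119 and 301 ± 189 normalised reads (SD, n = 4 each), a log2 fold change of -1.66 (limma-trend FDR = 0.0106). No source used here says whether reads were counted by strand, so reads of the 2 genes cannot be told apart.

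**Figure D3:**
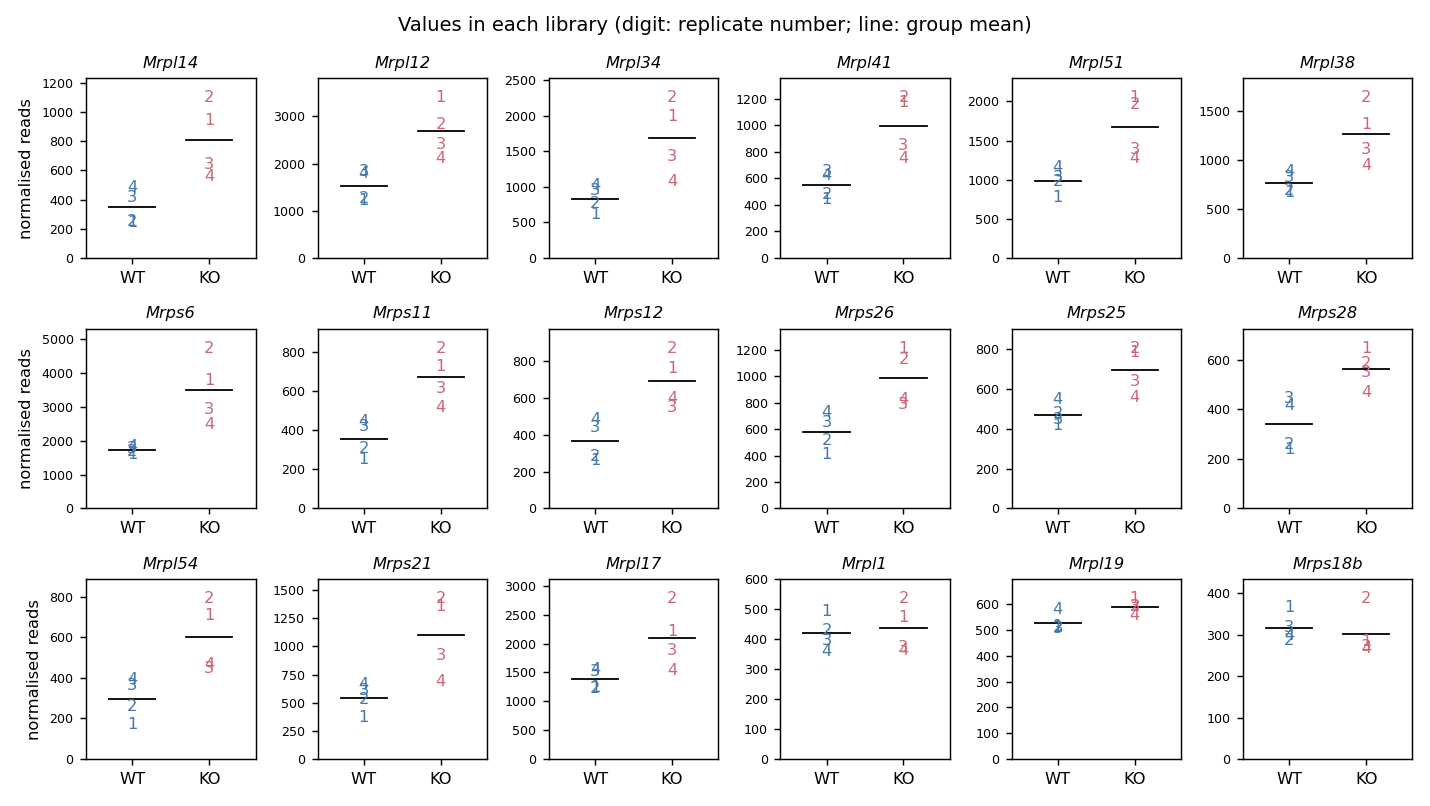
Normalised reads of 18 genes in each library, with the digit giving the replicate number and the line the group mean (WT, labelled wild type; KO, labelled knockout; each axis starts at 0). In the first 14 panels all libraries labelled knockout lie above all of wild type, and in Mrpl17, Mrpl1, Mrpl19 and Mrps18b the groups overlap.

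The shortest transcripts had some of the largest values. Mrps21, with a longest transcript of 488 nt, stood at 368, 524, 611 and 658 in wild type 1 to 4 and 1355, 1426, 919 and 691 in knockout 1 to 4 (normalised reads), a log2 fold change of 0.99 ± 0.23 SE (limma-trend FDR = 0.0107). Mrpl54, of 604 nt, stood at 168, 256, 360 and 392 against 706, 791, 447 and 468, a log2 fold change of 1.06 ± 0.26 SE (limma-trend FDR = 0.0123). In both, knockout 1 and 2 were far above the other 6 libraries. After subtraction of the trend their values were 0.36 (limma-trend FDR = 0.0507) and 0.11 (FDR = 0.53).

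Mrpl17 has the longest annotated transcript, 7300 nt, but a median coding transcript of 744 nt. It stood at 1236, 1220, 1526 and 1543 in wild type 1 to 4 and 2217, 2782, 1883 and 1543 in knockout 1 to 4 (normalised reads). Knockout 4 was level with wild type 4, so the groups overlapped. Its log2 fold change was 0.58 ± 0.16 SE (limma-trend FDR = 0.0196), and the call was lost when wild type 1, wild type 2 or knockout 1 was dropped. Here the choice of transcript decided the size of the trend subtraction: the remaining log2 fold change was 1.03 with the longest transcript and 0.31 with the median coding one.

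In limma-trend 23 of the 78 members were not called, among them Mrps18b, Mrpl1 and Mrpl19. At an unadjusted p under 0.05 limma-trend had 62 of the 78 higher. Mrps18b, a homologue of bacterial S18, stood at 365, 285, 317 and 298 in wild type 1 to 4 and 283, 388, 272 and 266 in knockout 1 to 4 (normalised reads). The groups overlapped, and the log2 fold change was -0.078 with a 95% interval of -0.39 to 0.23 (limma-trend FDR = 0.717). With the length and GC trend subtracted it was the only member called lower, at -0.54 (FDR = 0.0127), but with the median coding transcript it was -0.35 (FDR = 0.0585). Its paralogues were both higher, Mrps18a with a log2 fold change of 0.72 (limma-trend FDR = 0.0131) and Mrps18c with 0.57 (FDR = 0.0123).

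Mrpl1, of the stalk at the exit site for transfer RNA, stood at 492, 430, 397 and 359 in wild type 1 to 4 and 473, 536, 373 and 363 in knockout 1 to 4 (normalised reads). The groups overlapped, though knockout 2 lay above each wild-type library, and the log2 fold change was 0.046 with a 95% interval of -0.28 to 0.37 (limma-trend FDR = 0.844). Mrpl19, of a longest transcript of 5000 nt, stood at 513, 509, 509 and 580 against 623, 593, 594 and 556. Only wild type 4 reached into the other group, and the log2 fold change was 0.16 with a 95% interval of -0.054 to 0.38 (limma-trend FDR = 0.237). Mrpl19 shares an exon stretch of up to 1962 nt, on the opposite strand, with Gcfc2, which was lower (log2 fold change -0.79, limma-trend FDR = 0.0219).

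Genes of like transcript length were the control for the length slope. The log2 fold changes of the 78 members fell with the length of the longest annotated transcript (Spearman's rho -0.55 across genes) and rose with its GC content (rho 0.59). These are descriptions across genes of the same libraries. Of 9601 other coding genes between 770 and 4344 nt, the 10th and 90th percentile of the members, 20.1% were higher and 5.72% lower, with a median log2 fold change of 0.13. These genes were nonetheless longer than the members, with a median longest transcript of 2701 nt against 1866 nt, and a median coding transcript of 1829 nt against 1052 nt. The members' values, 55 of 78 and 0.55, stood above both. Over the whole length range of the members, 13393 other genes gave 16.2% higher and 11.7% lower. Neither control was matched on expression level. The median gene mean was 788 normalised reads in the members and 473 in all measured coding genes. The part of level in these differences was not tested.

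In each length bin, again not matched on level, a larger share of members than of other coding genes was higher. Under 750 nt, 7 of 7 members were higher against 94 of 259 other coding genes. From 750 to 1000 nt the counts were 10 of 10 against 166 of 343, and from 1000 to 1500 nt 12 of 17 against 395 of 1003. From 1500 to 2500 nt they were 10 of 13 against 709 of 2852. At 2500 nt and over 16 of 31 members were higher and 0 lower, while 831 other genes were higher and 2166 lower of 10194. There the median log2 fold change was 0.38 in members and -0.13 in the others.

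**Figure D4:**
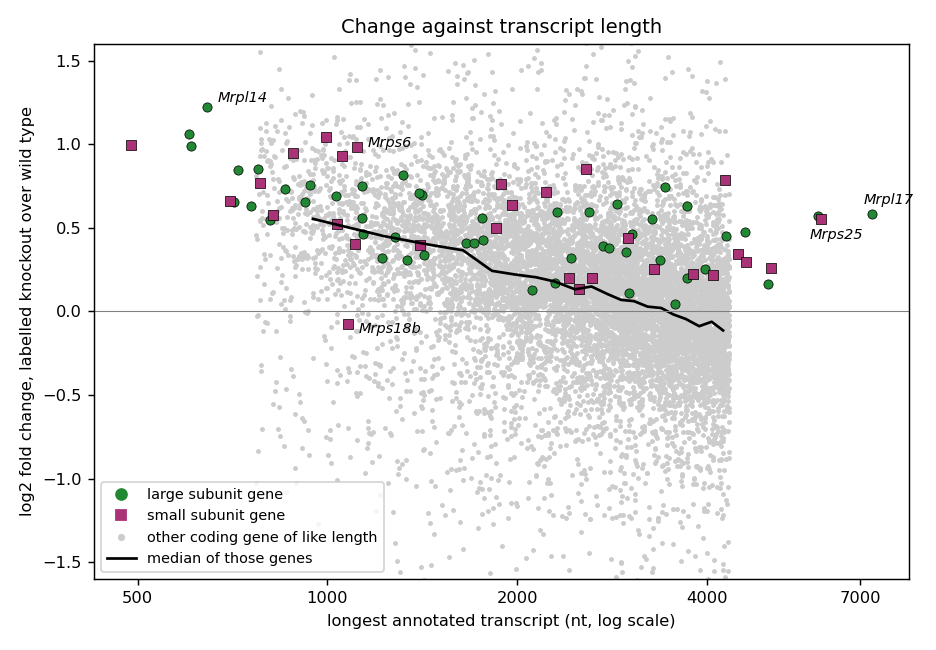
Log2 fold change, labelled knockout over wild type, against the longest annotated transcript (log scale) for the 49 large subunit genes (circles), the 29 small subunit genes (squares) and 9601 other coding genes of like length (grey), with the median of the latter as a line (other genes beyond the vertical range are not drawn). Both sets fall with length, and most members lie above the line.

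When each library's trend with length and GC content was subtracted, 28 members were higher and 1 lower, with a median log2 fold change of 0.31. In that limma-trend fit 10.4% of all genes were higher and 7.79% lower, and of the 9601 genes of like length 10.2% and 6.50%. The subunits again were close, with 17 of 49 large and 11 of 29 small subunit genes higher. In both fits, as deposited and with the trend subtracted, 23 members were higher, against 6.59% of all genes. After this subtraction the members' values rose with the longest transcript (rho 0.59) and less so with the median length of their coding transcripts (rho 0.17). With the trend over that median coding transcript subtracted instead, a choice made after seeing the data, 45 members were higher and 0 lower, against 11.3% and 10.4% of all genes.

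The stricter settings left few calls. With the length slope as a covariate in limma-trend, 0 of 78 members passed, against 0.656% of all genes higher, 0.438% lower and 1.09% in either direction. In that fit 1 member was higher and 0 lower at an unadjusted p under 0.05, and the median log2 fold change was 0.022. Without wild type 1 and 2 and knockout 1 and 2, the libraries of steepest slope, 3 members were higher, namely Mrpl14, Mrpl34 and Mrps6, against 4.61% of all genes. Of all genes 4.54% were lower in that fit and 9.15% were called in either direction. The log2 fold change then stayed above 0 in 69 of 78, with a median of 0.17 against 0.043 for genes of like length. When single libraries were left out, 18 members were higher if knockout 1 was dropped, 24 if wild type 2 was, 27 if wild type 1 was and 35 if knockout 2 was. Dropping any 1 of the other 4 gave 47 to 65. Of the 9601 genes of like length, 780, 859, 905 and 1287 were higher without knockout 1, wild type 2, wild type 1 and knockout 2. Dropping any 1 of the others gave 1479 to 2481. With all libraries and also without any 1 of them, 18 members were higher, against 5.7% of all genes.

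**Figure D5:**
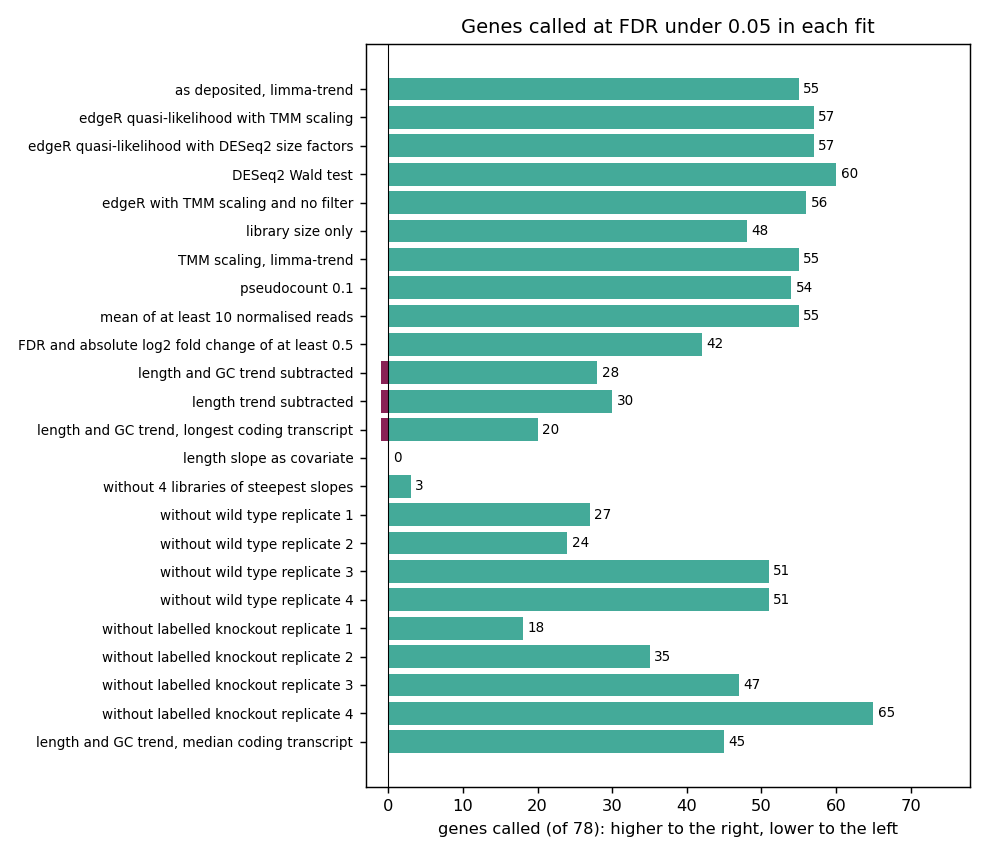
Number of the 78 genes called at FDR under 0.05 in each setting plotted, higher to the right and lower to the left of 0. Settings of scaling, tool and pseudocount lie between 48 and 60, the plotted trend subtractions between 20 and 45, and the slope covariate at 0.

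Other genes of mitochondrial translation were read from lists, beside the 14.8% of all genes that were higher and the 14.8% that were lower. Of 6 ribosome proteins with other kinds of symbol, 4 were higher: Dap3, Aurkaip1, Gadd45gip1 and Oxa1l, the last an inner-membrane insertase that binds the ribosome. Aurkaip1 had 898 ± 157 and 1511 ± 414 normalised reads (SD, n = 4 each), a log2 fold change of 0.73 (limma-trend FDR = 0.0147). Oxa1l had a log2 fold change of 0.36 (limma-trend FDR = 0.0189). Of 14 translation factors 2 were higher and 1 lower, a share of higher genes (14.3%) at that of all genes. The 2 were Tufm, the elongation factor that brings transfer RNA, at 0.49 (limma-trend FDR = 0.0131), and its exchange factor Tsfm, at 0.50 (FDR = 0.0419).

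Of 26 genes for ribosome assembly and ribosomal RNA modification, 7 were higher and 1 lower. Mpv17l2, an inner-membrane protein needed for assembly, stood at 382, 410, 397 and 553 in wild type 1 to 4 and 1104, 1256, 822 and 688 in knockout 1 to 4 (normalised reads). The groups did not overlap, and its log2 fold change was 1.13 ± 0.18 SE (limma-trend FDR = 0.00311). Malsu1, which binds the protein of Mrpl14 during assembly, was at 0.73 (limma-trend FDR = 0.0232). The GTPase gene Gtpbp10 was the lower one, at 598 ± 56.9 and 453 ± 15.1 (SD, n = 4 each), a log2 fold change of -0.40 (limma-trend FDR = 0.017).

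Of 17 mitochondrial aminoacyl-tRNA synthetases 2 were higher, Fars2 at 0.57 (limma-trend FDR = 0.0134) and Sars2 at 0.51 (FDR = 0.024), and 0 lower. That share (11.8%) was below the 14.8% of all genes. At an unadjusted p under 0.05 limma-trend had 1 lower. Of 10 genes of mitochondrial transcription and DNA upkeep limma-trend, edgeR and DESeq2 called 0, and 1 was higher at an unadjusted p under 0.05. Of 10 regulators of nuclear mitochondrial genes 1 was higher and 2 lower. The higher one was Esrra, a nuclear receptor of energy metabolism, at 0.65 (limma-trend FDR = 0.0127). The lower ones encode partners of the GABP complex, Gabpa at -0.50 (limma-trend FDR = 0.0137) and Gabpb2 at -0.91 (FDR = 0.00918). Gabpb2 stood at 955, 850, 705 and 698 in wild type 1 to 4 and 304, 338, 507 and 608 in knockout 1 to 4 (normalised reads), with a longest transcript of 8661 nt.

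With the length and GC trend subtracted, limma-trend called 0 of the 6 ribosome proteins with other symbols (4 higher at an unadjusted p under 0.05) and 0 of the 14 translation factors (2 higher and 1 lower unadjusted). It called 2 higher and 1 lower of the 26 assembly genes, 2 higher of the 17 synthetases, 0 of the 10 transcription genes (2 higher unadjusted), and 3 higher and 2 lower of the 10 regulators. Of all genes 10.4% were higher and 7.79% lower in that fit. With the slope covariate limma-trend called 0 higher in each of these 6 lists, and 1 synthetase lower, against 0.656% and 0.438% of all genes. At an unadjusted p under 0.05 that fit had 1 assembly gene and 1 regulator higher. Lower at that bound were 1 ribosome protein with another symbol, 1 assembly gene and 1 synthetase.

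The proteins the mitochondrial ribosome serves came from 2 genomes. Of 79 nuclear genes of the respiratory chain and ATP synthase 75 were higher, against 14.8% of all genes, with a median log2 fold change of 0.79. Of these, 54 were also higher with the trend subtracted, against 6.59% of all genes in both fits. Without the 4 libraries of steepest slope 46 of the 79 were higher, against 4.61% of all genes. With the slope covariate limma-trend called 0 (10 higher at an unadjusted p under 0.05), against 0.656% of all genes higher. Of the 13 mitochondrially encoded protein genes limma-trend called 0 and DESeq2 called 1 higher, and edgeR, which tested 12, called 0. At an unadjusted p under 0.05 limma-trend and edgeR each had 3 higher and 0 lower. Without the 4 libraries of steepest slope 5 of the 13 were higher, again against 4.61% of all genes. Of 79 cytosolic ribosomal protein genes, 54 were higher with a median of 0.57, close to the members' 0.55. With the trend subtracted, 13 cytosolic and 28 mitochondrial ribosomal protein genes were higher, with medians of 0.17 and 0.31. Lower were 2 cytosolic genes and 1 mitochondrial one. With the trend over the median coding transcript the medians were closer, at 0.30 and 0.34, with 18 and 45 higher. Without the 4 libraries of steepest slope 3 of each were higher, with medians of 0.095 and 0.17. With the slope covariate 0 of each were called, with medians of -0.11 and 0.022. The difference between these lists was not tested.

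The 78 genes lie on 17 chromosomes, with 11 on chromosome 11, which holds 8.06% of the measured coding genes. A coding gene that starts at most 1000 nt upstream and runs the other way was found for 18 of the 78, or 23.1%. Among 14655 other measured coding genes the share was 9.33%. Pairs whose starts overlap were not counted. Of these 18 members 15 were higher, with a median log2 fold change of 0.53. Of their 18 measured partners 4 were higher and 0 lower, with a median of 0.048. The 4 were Klc4 beside Mrpl2, Fau beside Mrpl49, Apba3 beside Mrpl54 and Sars2 beside Mrps12. The partners had a median longest transcript of 2938 nt, longer than that of all 78 members (1866 nt). Exon bases were shared with a measured gene in 22 members, in 20 with a gene on the opposite strand and in 2 (Mrps6 and Mrps24) with one on the same strand.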

How the data were processed

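The deposited table holds signal values, which are gene read counts that the authors divided by 1 scaling factor per library. The tools named in the submitters' processing notes are STAR 2.7.1a, DESeq2 1.38.3, fastp 0.23.4 and FastQC 0.12.1, and the build is mm10. Not given in the sources used here are the gene filter, the read counter, its annotation and whether it used strand. Whole reads were recovered for 100% of values (tolerance 1e-04 reads). After 64 repeated rows were dropped from 15602, 15538 genes remained. The lowest gene total was 11 reads, so genes with fewer were already left out.

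Symbols, coordinates (1-based) and transcripts came from the GENCODE mouse annotation of mm10. The main test was limma-trend (limma 3.58.1, R 4.3.3, robust) on log2(value + 1), modelling genotype alone, with Benjamini-Hochberg adjustment over all genes. It was two-sided, with calls at FDR under 0.05, and log2 fold changes of weakly expressed genes are understated. Alternatives were edgeR 4.0.16 and DESeq2 1.42.0 on the recovered reads, other scalings, 0.1 as the pseudocount, at least 10 normalised reads on average, an added bound of 0.5 on the log2 fold change, a replicate block and leaving out libraries. Others were a loess trend (span 0.3) with length and GC content subtracted per library, and the length slope as covariate. The fits were tested on simulated data with known changes.

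The genes, lists and classes were chosen with earlier results of these data known. Genes named are the 3 lowest-FDR higher and 2 lowest-FDR lower of each class, the extremes of log2 fold change, level per kilobase and length, up to 2 genes of each other list, and Phf23. The remaining genes given with values (Mrps18a, Mrps18c, Mrpl46, Malsu1, Gabpa, Slc5a3, Nr2c2, Gcfc2 and the neighbouring genes) were added after their values were seen.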

Additional observations from a re-analysis of the deposited data

Results flagged for a closer look

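In groups of 4 libraries, the highest or lowest value was set against the others by its gap to the nearest one, as a share of the group's whole range. A library was taken to stand apart where this share passed Dixon's 95% critical value, which chance gives in about 1 in 20 groups, and 44 groups were looked at. Mrps18b had 388 normalised reads in the library labelled knockout 2, where the other 3 had 266 to 283. Mrpl19 had 580 normalised reads in wild type 4, where the other 3 had 509 to 513.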

How the results depend on the processing

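Other tools, scalings and pseudocounts gave 48 to 60 higher members and 0 lower, against 55. Members called numbered 29 with the length and GC trend subtracted (17 large subunit), 31 with length alone (18 large), 21 with the longest coding transcript (12 large, 9 small), 3 without the 4 libraries of steepest slope (2 large, 1 small) and 0 with the slope covariate (0 large, 0 small). Genes of like length, 2482 in the main test, numbered 1600, 1832, 1496, 753 and 84 in these settings, 1559 when a log2 change of 0.5 or more was also required, and 3736 from the shortest to the longest member. Leaving out 1 library gave 18 to 65 members, 10 to 43 large and 8 to 22 small subunit genes, and 982 to 3161 genes of like length, lowest without knockout 1 and highest without knockout 4. The cause of these changes was not tested.

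Some log2 fold changes changed sign. Mrpl1 was at -0.016 with library size only, -0.16 with the slope covariate, -0.038 without the 4 steepest libraries and -0.059 to 0.13 without 1 library. With the slope covariate Mrpl17 was at -0.063, Aurkaip1 at -0.050, Tsfm at -0.11 and Sars2 at -0.0076. Polg, at -0.19 in the main test, was at 0.17 with the trend subtracted, with or without the block, 0.22 with length alone, 0.17 with the longest coding transcript and 0.029 with the slope covariate. The depth of 15647304 reads or more put each member's mean at 299 normalised reads or higher. The parts of counting and of differences between libraries in the spread were not separated.

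The labels number the libraries 1 to 4 in both groups without saying that a number marks a shared culture. Deviations from the group means correlated at -0.33, -0.13, -0.19 and -0.28 between libraries of the same number, so the numbers were not taken as a pairing, and no library correlated best with its own number. With a replicate block, 1 member was called (Mrps6; 0 large and 1 small subunit gene) and 178 genes of like length. With the trend subtracted and the block, 9 members (4 large, 5 small) and 800 genes of like length were called.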
